A study of Mus musculus with 7 samples.

Results

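The Notch pathway was followed through 10 of its genes by RNA sequencing of whole embryonic mouse kidneys taken at E15.5. They are the receptor genes Notch1, Notch2 and Notch3, the ligand genes Dll1 and Jag1, the fringe glycosyltransferase gene Lfng, and the target genes Hes1, Hes5, Hey1 and Heyl. The genes were picked by symbol, and all 10 were found among the 16167 genes of the deposited table and passed the filter on low values. The 4 mutant libraries came from Six2-Cre; Irx3/5(loxP/loxP) embryos, in which Irx3 and Irx5, neighbouring Iroquois homeobox genes, carry loxP sites on both chromosomes. The 3 control libraries came from Irx3/5(loxP/+) littermates, with loxP sites on 1 chromosome, and are labelled WT. Six2-Cre is a Cre recombinase under the control of Six2, a gene of the nephron progenitors, so stroma, vessels and ureteric tree of the same kidneys are not its targets. The control titles name no Cre, so the deletion and the Cre transgene cannot be told apart. The labels do not give the number of embryos behind a library, and p-values therefore measure the spread between these samples.

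Notch receptors are activated by ligands on neighbouring cells. Binding leads to cleavage of the receptor by ADAM proteases and gamma-secretase, and the freed intracellular part enters the nucleus, where it joins the DNA-binding protein RBPJ and Mastermind coactivators and turns on repressor genes of the Hes and Hey families. Fringe enzymes add a sugar to O-fucose on the receptors and so change which ligands activate them. In the developing mouse kidney, Notch2 and, to a lesser degree, Notch1 act in the renal vesicle and S-shaped body, the first epithelial stages of the nephron, where Notch signalling is needed for progenitors to leave the Six2-positive state and for proximal tubule and podocytes to form. Jag1 and Notch3 are also used in blood vessels and their mural cells.

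Depth was 45539155 to 53497462 reads in listed genes in the mutants and 40511920 to 69028943 in the controls. Irx3 was at 6.63, 3.98, 5.57 and 6.75 FPKM (fragments per kilobase of gene, scaled to library size) in mutant replicates 1 to 4 and at 14.7, 14.2 and 12.7 FPKM in control replicates 1 to 3. Every mutant was thus below every control at this gene. Irx5 was at 0.895 to 2.05 FPKM in the mutants and 1.36 to 1.59 in the controls. The deleted stretch is not given in the labels, so for Irx5 these values check nothing. Six3, a gene next to Six2, was at 4.37 to 5.41 FPKM in the mutants and 0.016 to 0.067 in the controls, which also sets every mutant library apart from every control. Mutant replicate 1 stood apart in how its values ran with gene length: its deviation from each gene's mean changed by -0.10 log2 units per doubling of length, against 0.017 to 0.046 in the other mutants and -0.029 to 0.039 in the controls. Results that rest on this library are given with and without it.

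The 5 genes Dll1, Lfng, Hes5, Hey1 and Heyl were lower in every mutant library than in every control, while the 3 receptors, Jag1 and Hes1 overlapped between the groups. Hes5 had the lowest ratio, with a mutant mean at 48.8% of the control mean, followed by Lfng at 68.2%, Hey1 at 68.8%, Dll1 at 72.5% and Heyl at 85.6%. Among all 13466 genes tested, 8.61% had every mutant below every control. In the fit across all genes (limma on log2(FPKM + 1), Benjamini-Hochberg adjusted p under 0.05) 0 of the 10 genes were called, where 1.53% of all genes were, and 6 of the 10 had an unadjusted p under 0.05 with a lower mutant mean, against 8.48% of all genes. Limma-voom on the recovered counts also called 0. The authors' deposited DESeq2 table calls the 5 genes named above lower at an adjusted p under 0.05, where it calls 3.74% of all its genes lower. The median log2 fold change over the 10 genes was -0.25, and over all genes tested it was -0.0020. In RNA from whole kidneys, fewer cells of a type and less RNA per cell cannot be told apart.

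**Figure D1:**
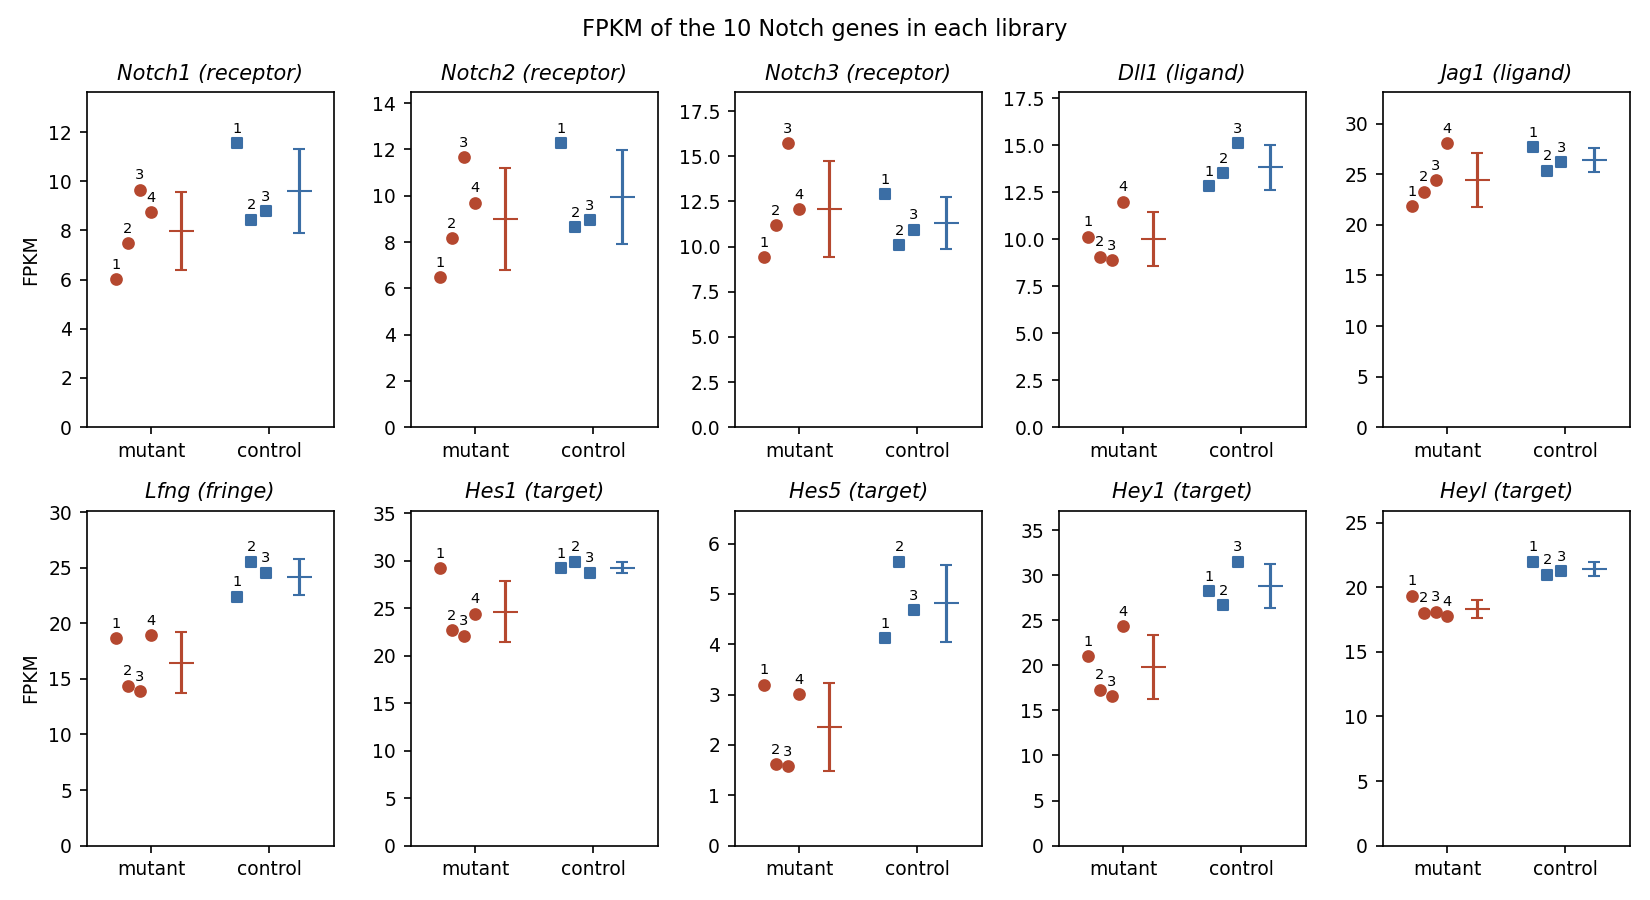
FPKM of each of the 10 Notch genes in the 4 mutant libraries (circles) and the 3 control libraries (squares), numbered by replicate, with the mean and SD beside them; each axis starts at 0. The groups are apart for Dll1, Lfng, Hes5, Hey1 and Heyl, and they overlap for the 3 receptors, for Jag1 and, through mutant replicate 1, for Hes1.

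Of the receptors, Notch1 (ENSMUSG00000026923.16), which in the kidney acts beside Notch2 in the early nephron and also in endothelium, was at 6.02, 7.47, 9.65 and 8.73 FPKM in mutant replicates 1 to 4 and at 11.6, 8.43 and 8.78 FPKM in control replicates 1 to 3. The lowest value was that of mutant replicate 1 and the highest that of control replicate 1, and the other 5 lay between 7.47 and 9.65 FPKM. Its log2 fold change was -0.24 (SE 0.15; 95% interval -0.60 to 0.11; limma adjusted p = 0.588). Notch2 (ENSMUSG00000027878.12), the receptor that nephron segmentation in the mouse depends on most, was at 6.49, 8.17, 11.7 and 9.70 FPKM in the mutants and at 12.3, 8.63 and 8.93 FPKM in the controls. The same libraries marked its ends as in Notch1, and the log2 fold change was -0.14 (SE 0.18; 95% interval -0.56 to 0.28; limma adjusted p = 0.851). Notch3 (ENSMUSG00000038146.9), known from pericytes and vascular smooth muscle, was at 9.42, 11.2, 15.7 and 12.1 FPKM in the mutants and at 12.9, 10.1 and 10.9 FPKM in the controls. Mutants lay at both ends of its range, and all controls lay between them. Its mutant minus control difference on the log2 scale was 0.074 (SE 0.15; 95% interval -0.27 to 0.42; limma adjusted p = 0.917).

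The receptors shared an order of libraries. In each of the 3, mutant replicate 3 was the highest mutant, then replicates 4, 2 and 1, and control replicate 1 was the highest control, then replicates 3 and 2. They are also long genes: by the length that the deposited values imply, Notch1 and Notch2 were longer than 96.8% of the genes tested and Notch3 than 91.4%, and Hes5 was longer than 12.6% and Lfng than 29.8%. When each library's trend on length was removed, the spread between the lowest and the highest of the 7 libraries shrank to 0.48 for Notch1, against 0.84 as deposited, on the log2(FPKM + 1) scale. For Notch2 it was 0.44, against 0.83 as deposited, and for Notch3 0.49, against 0.68. The log2 fold changes of Notch1, Notch2 and Notch3 were then -0.21, -0.10 and 0.099 (limma adjusted p = 0.265, 0.716 and 0.711). Without mutant replicate 1 they were -0.13, -0.011 and 0.18 (limma adjusted p = 0.638, 0.983 and 0.542). The intervals of the 3 receptors include a log2 fold change of 0, and also, for Notch1 and Notch2, mutant levels as low as 0.66 and 0.68 times the control level on the same scale.

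**Figure D2:**
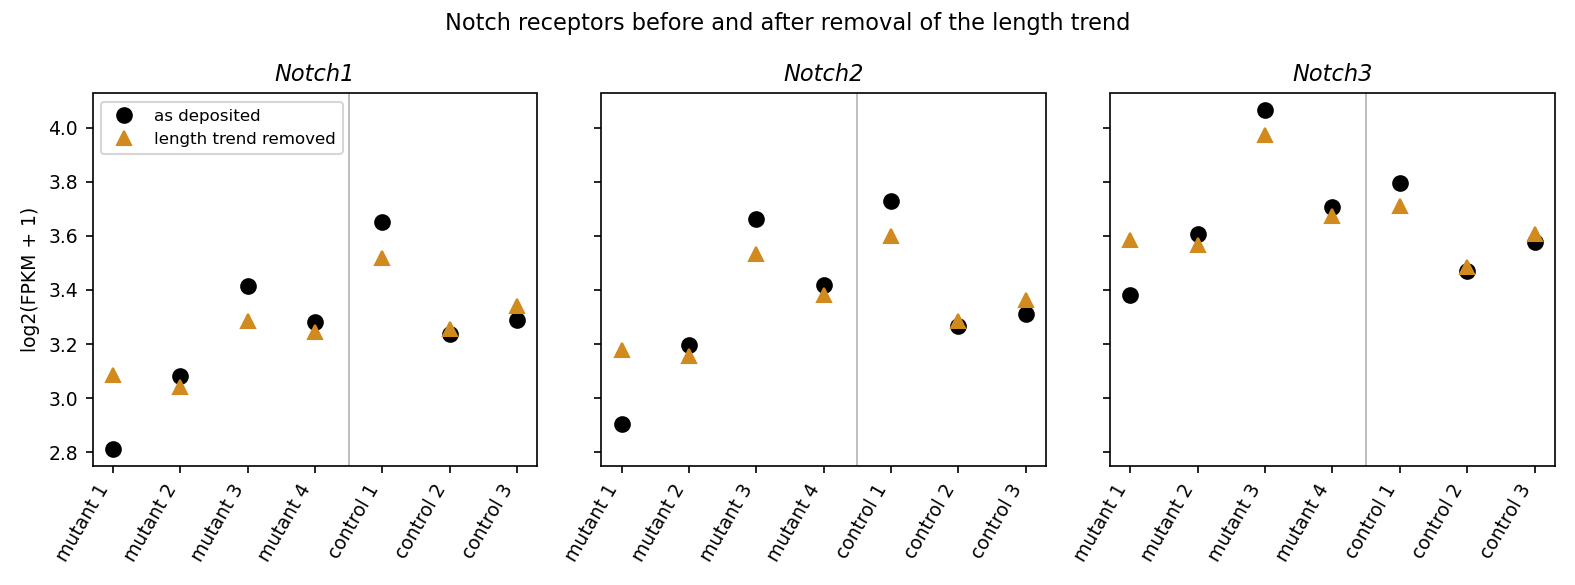
Level of Notch1, Notch2 and Notch3 on the log2(FPKM + 1) scale in each of the 4 mutant and 3 control libraries, as deposited (circles) and after removal of each library's trend on gene length (triangles). Mutant replicate 1 moves up and control replicate 1 moves down, and the spread over the 7 libraries narrows to 0.48, 0.44 and 0.49.

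The ligand genes differed from each other. Dll1 (ENSMUSG00000014773.14), a Delta-type ligand made in renal vesicles and needed in the mouse for proximal segments, was at 10.1, 9.06, 8.90 and 12.01 FPKM in the mutants and at 12.8, 13.5 and 15.1 FPKM in the controls. No mutant reached the lowest control, though mutant replicate 4 came close to it. Its log2 fold change was -0.43 (SE 0.11; 95% interval -0.67 to -0.19; limma adjusted p = 0.0891), and the authors' deposited table gives an adjusted p of 0.00947. Jag1 (ENSMUSG00000027276.8), a Serrate-type ligand of the early nephron and of arteries, was at 21.8, 23.3, 24.4 and 28.1 FPKM in the mutants and at 27.7, 25.4 and 26.2 FPKM in the controls. Here 3 mutants lay below all controls and mutant replicate 4 above them. The log2 difference for Jag1 was -0.11 (SE 0.086; 95% interval -0.31 to 0.081; limma adjusted p = 0.670). Whether the changes of Dll1 and Jag1 differ was not tested. The other ligand genes listed had low levels, with Dll4, a ligand of endothelium, at 5.15 ± 0.63 FPKM in the mutants and 5.08 ± 0.26 in the controls, and Jag2 at 2.83 ± 0.17 and 3.19 ± 0.28 FPKM (SD, n = 4 mutants and n = 3 controls).

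Lfng (ENSMUSG00000029570.6) encodes lunatic fringe, which modifies Notch receptors so that they answer better to Delta ligands. It was at 18.7, 14.4, 13.9 and 18.9 FPKM in the mutants and at 22.4, 25.5 and 24.5 FPKM in the controls. Mutant replicates 2 and 3 lay lowest, replicates 1 and 4 stood together above them, and all were below the controls. The log2 fold change was -0.54 (SE 0.12; 95% interval -0.80 to -0.27; limma adjusted p = 0.0695), the smallest adjusted p of the 10 genes, and the authors' deposited table gives 0.00256. For the other fringe genes the log2 difference was 0.067 (Mfng, SE 0.095) and -0.094 (Rfng, SE 0.095), at limma adjusted p of 0.866 and 0.782.

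Hes5 and Lfng are shown here by the 250 bases upstream of their start. Of the 8 windows found for 7 of the 10 genes, theirs were the 2 that held the core letters given below. Both genes were lower in all mutants, but so was Dll1, whose 2 windows did not hold these letters. Hes5 is a direct target of the Notch complex. The sequences come from RefSeq on GRCm38.p6, not on the build of the table, and are written 5′ to 3′ on the strand of the gene. Capitals mark the core letters that RBPJ is known to bind, TGGGAA, or TTCCCA where they lie on the other strand. The Hes5 window is chr4:154960673-154960922 on the plus strand, and the Lfng window is chr5:140607091-140607340 on the plus strand.
Hes5: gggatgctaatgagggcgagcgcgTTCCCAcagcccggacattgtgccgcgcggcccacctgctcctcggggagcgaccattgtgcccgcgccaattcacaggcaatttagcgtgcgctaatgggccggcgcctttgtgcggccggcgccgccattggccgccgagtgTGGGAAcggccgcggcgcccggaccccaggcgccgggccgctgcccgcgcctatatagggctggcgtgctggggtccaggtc
Lfng: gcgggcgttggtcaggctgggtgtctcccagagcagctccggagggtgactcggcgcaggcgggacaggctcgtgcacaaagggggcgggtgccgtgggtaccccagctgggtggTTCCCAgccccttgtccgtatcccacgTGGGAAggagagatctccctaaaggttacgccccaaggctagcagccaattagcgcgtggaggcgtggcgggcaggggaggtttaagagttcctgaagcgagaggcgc

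Each of these windows holds the motif 2 times, starting at positions -226 and -82 in Hes5 and at -135 and -108 in Lfng, counted from the gene's start. Over 32851 promoter windows of the same length, 21.6% held it at least once and 2.77% at least 2 times, on either strand. The 6 windows found for Notch1, Notch2, Notch3, Jag1 and Dll1, which has 2 starts, did not hold these letters. Windows for Hes1, Hey1 and Heyl were not used here. A match describes the sequence and is no measure of binding.

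The means of Hes5, Hey1, Heyl and Hes1 were all lower in the mutants, by different amounts. Hes5 (ENSMUSG00000048001.8), a bHLH repressor, was at 3.20, 1.61, 1.58 and 3.00 FPKM in the mutants and at 4.11, 5.64 and 4.68 FPKM in the controls. All mutants lay below all controls, and replicates 2 and 3 were the lowest. This was the least abundant of the 10 genes, with 99 to 460 reads per library, so its counting error is the largest of them. The log2 fold change was -0.82 (SE 0.20; 95% interval -1.28 to -0.37; limma adjusted p = 0.0891). At so low a level the added 1 FPKM shrinks a fold change, and the authors' deposited table has -1.03 on the log2 scale (SE 0.28; adjusted p = 0.00839).

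Hey1 (ENSMUSG00000040289.9), a related repressor that is active in renal vesicles and in arteries, was at 21.0, 17.3, 16.6 and 24.3 FPKM in the mutants and at 28.2, 26.7 and 31.5 FPKM in the controls. Mutant replicate 4 came nearest to the controls, and replicates 2 and 3 were again the lowest. Its log2 fold change was -0.53 (SE 0.13; 95% interval -0.82 to -0.24; limma adjusted p = 0.0891; 0.00675 in the authors' deposited table). Heyl (ENSMUSG00000032744.5), the third Hey family member, was at 19.4, 18.0, 18.1 and 17.8 FPKM in the mutants and at 22.0, 21.0 and 21.3 FPKM in the controls. Its libraries lay close together, with a highest value 1.09 times the lowest among the mutants, and the groups were apart. The log2 fold change of Heyl was -0.21 (SE 0.058; 95% interval -0.35 to -0.083; limma adjusted p = 0.117; 0.0272 in the authors' deposited table).

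Hes1 (ENSMUSG00000022528.9), a repressor used in many tissues and also regulated outside the Notch pathway, was at 29.2, 22.7, 22.1 and 24.4 FPKM in the mutants and at 29.2, 29.9 and 28.7 FPKM in the controls. Mutant replicate 1 lay among the controls and the other 3 mutants below them. With each library's length trend removed, mutant replicate 1 was at 4.81 on the log2(FPKM + 1) scale, and the lowest control at 4.86. Limma did not call Hes1 in that fit (adjusted p = 0.0783). With all libraries the log2 fold change was -0.25 (SE 0.093; 95% interval -0.46 to -0.038; limma adjusted p = 0.264), and the authors' deposited table gives 0.242. Of the targets that are not among the 10 genes, Nrarp, which encodes an inhibitor of the Notch complex, was at 16.6, 13.5, 13.2 and 19.8 FPKM in the mutants and at 22.1, 23.8 and 20.3 FPKM in the controls. Its groups were apart and mutant replicate 4 came near control replicate 3. The log2 difference for Nrarp was -0.47 (SE 0.13; limma adjusted p = 0.135; 0.0300 in the authors' deposited table). Hey2, the Hey gene of arteries and heart, was at 4.54 ± 0.34 FPKM in the mutants and 4.53 ± 0.16 in the controls (SD, n = 4 and n = 3).

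The lowest mutant library was not the same in all 10 genes. In Dll1, Lfng, Hes1, Hes5 and Hey1, mutant replicates 1 and 4 were the higher pair and replicate 3 was the lowest, whereas in Notch1, Notch2, Notch3 and Jag1 replicate 1 was the lowest mutant. In Heyl, replicate 1 was the highest mutant and replicate 4 the lowest. Mutant replicate 3 also had the highest share of the embryonic globin gene Hbb-y, at 10.52% of Hbb-bs. The share was 1.38%, 1.53% and 2.24% in mutant replicates 1, 2 and 4. In control replicates 1 to 3 it was 1.34%, 1.39% and 3.45%. The part of this share in the values of the Notch genes was not tested.

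In the shared machinery and the regulators of Notch signalling, no gene passed the test. The lists of other pathway genes hold 42 genes, of which 41 were listed and tested. Limma called 0 of the 41 (2 lower and 1 higher at an unadjusted p under 0.05; 0 by limma-voom), and the authors' deposited table calls 1, Nrarp. Their median log2 fold change was -0.038. These were the 34 genes of cleavage, maturation, the nuclear complex, corepressors, and inhibitors and turnover. Their log2 fold changes ran from -0.30 (Hes6, an inhibitor) to 0.21 (Maml2), and 20 were below 0 and 14 above. Rbpj, the DNA-binding partner of all Notch receptors, was at 12.1, 10.03, 10.8 and 14.0 FPKM in the mutants and at 10.1, 9.63 and 13.0 FPKM in the controls. Its log2 difference was 0.097 (SE 0.13; limma adjusted p = 0.850). The groups overlapped over most of their range. Summed over the 8 cleavage genes, which encode ADAM10, ADAM17 and the subunits of gamma-secretase, levels were 232.5 to 235.6 FPKM in the mutants and 221 to 229.5 in the controls. Poglut1 and Furin, which act on the receptors in the secretory pathway, differed by 0.16 (Poglut1, SE 0.061) and -0.15 (Furin, SE 0.058) on the log2 scale, at limma adjusted p of 0.264 and 0.267. Notch4, a receptor of endothelium, was at 4.66 ± 0.56 FPKM in the mutants and 5.18 ± 0.51 in the controls (SD, n = 4 and n = 3).

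**Figure D3:**
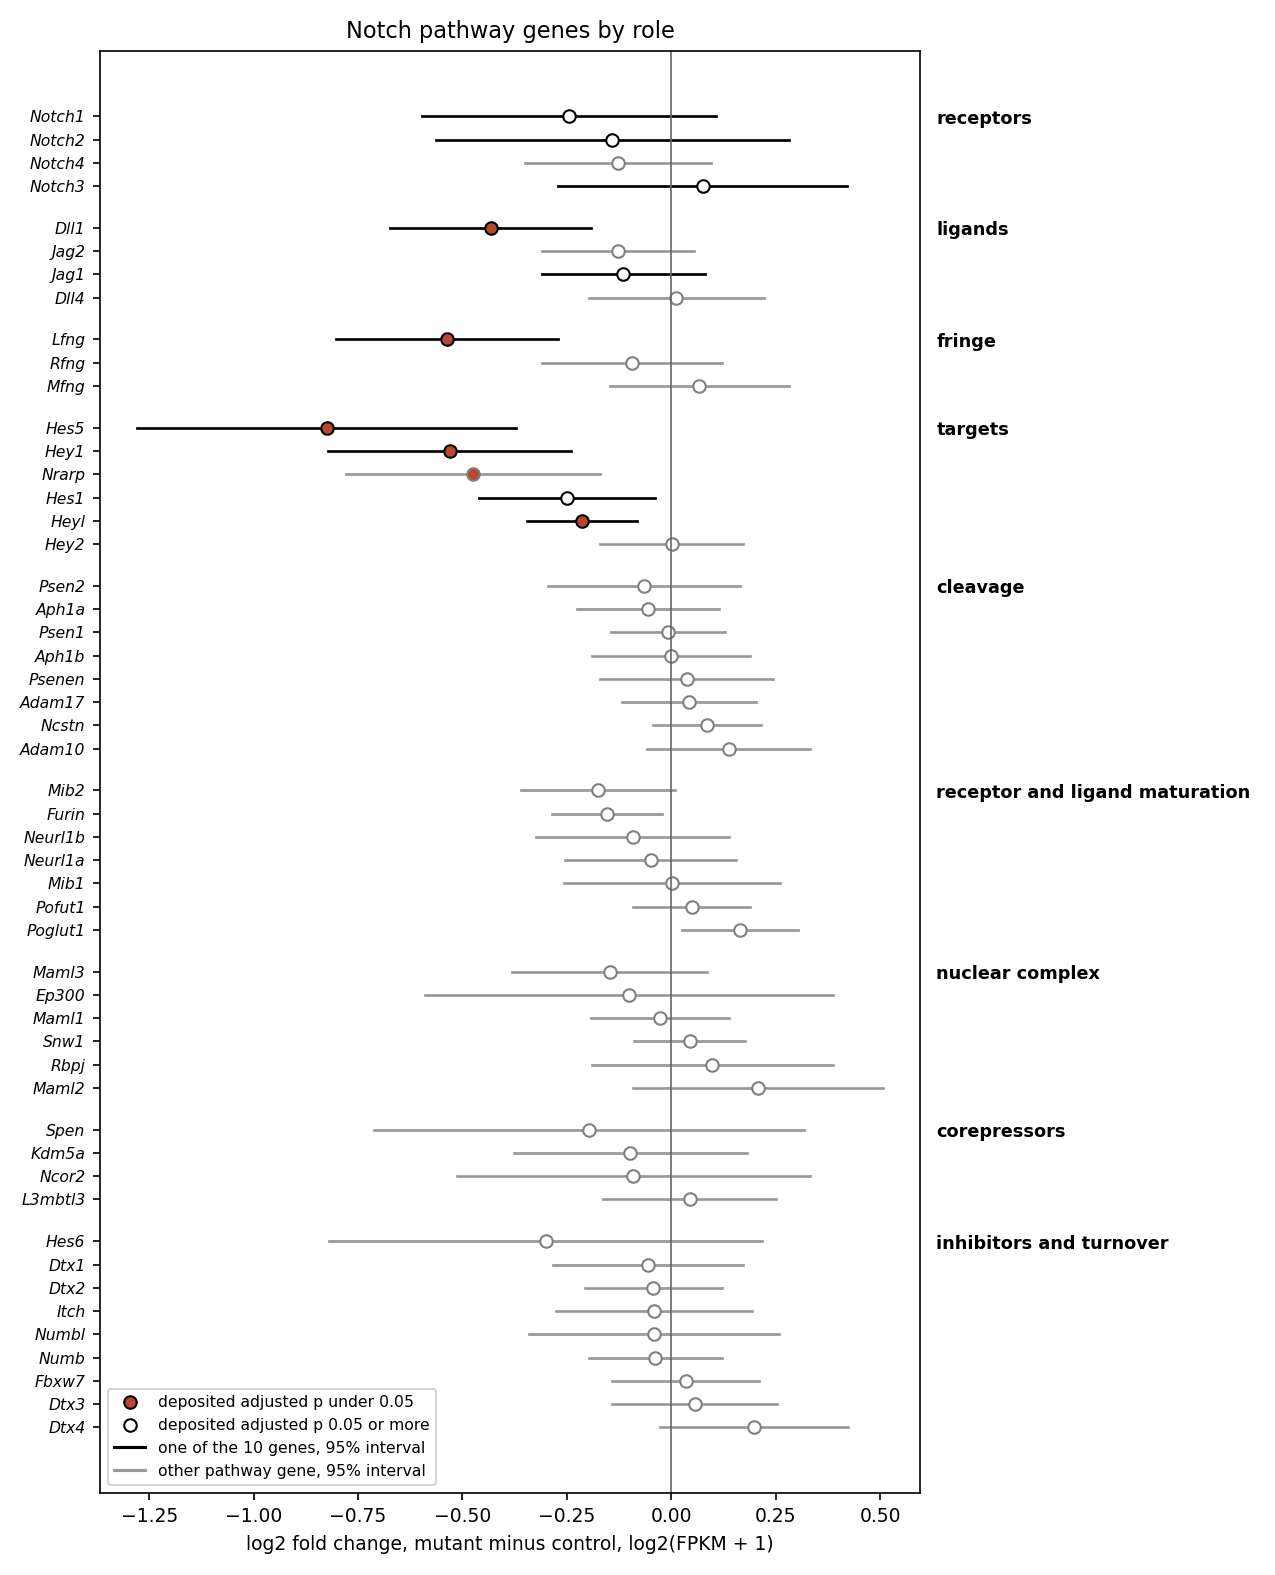
Log2 fold change (mutant minus control, log2(FPKM + 1)) with its 95% limma interval for the 51 listed genes of the Notch pathway, grouped by role; black lines mark the 10 genes and filled points an adjusted p under 0.05 in the authors' deposited table. The filled points are Dll1, Lfng, Hes5, Hey1, Heyl and Nrarp. The cleavage, maturation, nuclear, corepressor, and inhibitor and turnover genes lie between -0.30 and 0.21.

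Some marker genes of cell types that use Notch also changed in these kidneys. Of 14 early nephron genes, limma called 2 lower, Pou3f3 and Pax2, and 0 higher, where it called 1.53% of all genes in either direction. In this list 13 were below 0 and 1 above, and the median log2 fold change was -0.16. It summed to 457.5 to 532.2 FPKM in the mutants and 541.2 to 546.9 in the controls. Of the 11 podocyte genes tested limma called 3 lower and 0 higher, with a median log2 fold change of -0.42, and 9 were below 0 and 2 above. The 12 podocyte genes listed summed to 237.9 to 277.2 FPKM in the mutants and 294.2 to 317.4 in the controls. Podocyte genes called lower were 4 without mutant replicate 1, 1 without mutant replicate 4, and 0 without any 1 of the other libraries. In the proximal tubule list limma called 2 of 11 lower, and the median was -1.27. All 11 were below 0 with an unadjusted limma p under 0.05, as were 8.48% of all genes tested. The list summed to 44.8 to 115.1 FPKM in the mutants and 149.5 to 190.1 in the controls. Limma called 6 of 13 nephron progenitor genes lower and 1 higher, with a median of -0.39. Of the 13, 11 were below 0 and 2 above. The list summed to 267.7 to 293.3 FPKM in the mutants and 366.2 to 372.7 in the controls. Without mutant replicate 1, the counts lower in the early nephron, proximal tubule and progenitor lists were 2, 4 and 6. Without mutant replicate 3 they were 1, 3 and 6. Without mutant replicate 2 or 4 or any 1 of the controls, limma called 0 genes of the early nephron and proximal tubule lists, and 2 to 4 progenitor genes were lower. The authors' deposited table calls 4 of 14 early nephron, 7 of 12 podocyte, 6 of 12 proximal tubule and 6 of 13 progenitor genes lower. Among these lists it calls 1 gene higher, a progenitor gene, and of all its genes it calls 3.74% lower. The part of these cell types in the values of Dll1, Lfng, Hes5, Hey1 and Heyl was not tested. The mean of the early nephron list on the log2(FPKM + 1) scale was 4.62, 4.48, 4.57 and 4.72 in the mutants and 4.85, 4.84 and 4.79 in the controls, and over the 10 Notch genes it was 3.72, 3.62, 3.73 and 3.89 in the mutants and 4.10, 4.02 and 4.05 in the controls. In both list means mutant replicate 2 was the lowest and replicate 4 the highest mutant, and no mutant reached a control. Mutant replicates 1 and 3 ran in opposite order in the 2 lists. Taken singly, Dll1, Lfng, Hes5 and Hey1 were lowest in mutant replicate 3, and Heyl was lowest in replicate 4.

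Of 13 endothelial genes limma called 0 (1 lower and 2 higher at an unadjusted p under 0.05; 0 by limma-voom and 0 in the authors' deposited table), and the list summed to 268.5 to 286.8 FPKM in the mutants and 255.6 to 265.1 in the controls. For mural and smooth muscle genes 0 of 10 tested were called (1 lower and 1 higher at an unadjusted p under 0.05; 0 by limma-voom). The authors' deposited table calls 1 lower and 1 higher of 11, and the sums overlapped, at 174.4 to 221.4 FPKM in the mutants and 207.5 to 282.5 in the controls. Of the 10 mural genes tested, 9 had a log2 fold change below 0 and 1 above, with a median of -0.20. The 2 with the smallest p were the renin gene Ren1 and the pericyte gene Rgs5. Ren1 was at 28.03 ± 10.4 FPKM in the mutants and 64.5 ± 7.27 in the controls (SD, n = 4 and n = 3, limma adjusted p = 0.129), and its groups were apart. Rgs5, the 1 gene above 0, was at 24.3 ± 7.67 and 14.2 ± 3.23 FPKM (limma adjusted p = 0.319), and its groups overlapped. Limma called 3 of 12 stromal genes higher (0 without mutant replicate 2 or 4 or any 1 of the controls), and all 12 were above 0. The authors' deposited table calls 7 of the 12 higher, where it calls 282 of 16167 genes higher. The stromal list summed to 771.7 to 946.5 FPKM in the mutants and 553.9 to 730.8 in the controls. Limma called 3 of 11 loop and distal tubule genes lower and 1 higher, Calb1, which the ureteric tree also makes. Of the 11, 10 were below 0 and 1 above. The authors' deposited table calls 9 lower and 1 higher of 12. In that list limma called 0 genes without mutant replicate 2 or 4 or control replicate 1 or 2, 1 higher and 0 lower without control replicate 3, 3 lower and 0 higher without mutant replicate 3, and 5 lower and 1 higher without mutant replicate 1. In the ureteric tree list limma called 0 of 12 (4 lower and 4 higher at an unadjusted p under 0.05; 0 by limma-voom; 3 lower and 3 higher in the authors' deposited table). Immune, erythroid and RNA quality genes had 0 limma calls of 10, 7 and 8 tested, and 0 by limma-voom. At an unadjusted limma p under 0.05, they had 0, 0 and 1 lower and 6, 0 and 0 higher. Of all 13466 genes tested, 1142 were lower and 708 higher at that threshold. All 10 immune genes had a log2 fold change above 0. The immune list summed to 48.6 to 55.1 FPKM in the mutants and 41.3 to 43.5 in the controls. The authors' deposited table calls 1 immune gene higher and 0 erythroid or RNA quality genes. No gene of these lists was at 0 in any library.

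**Figure D4:**
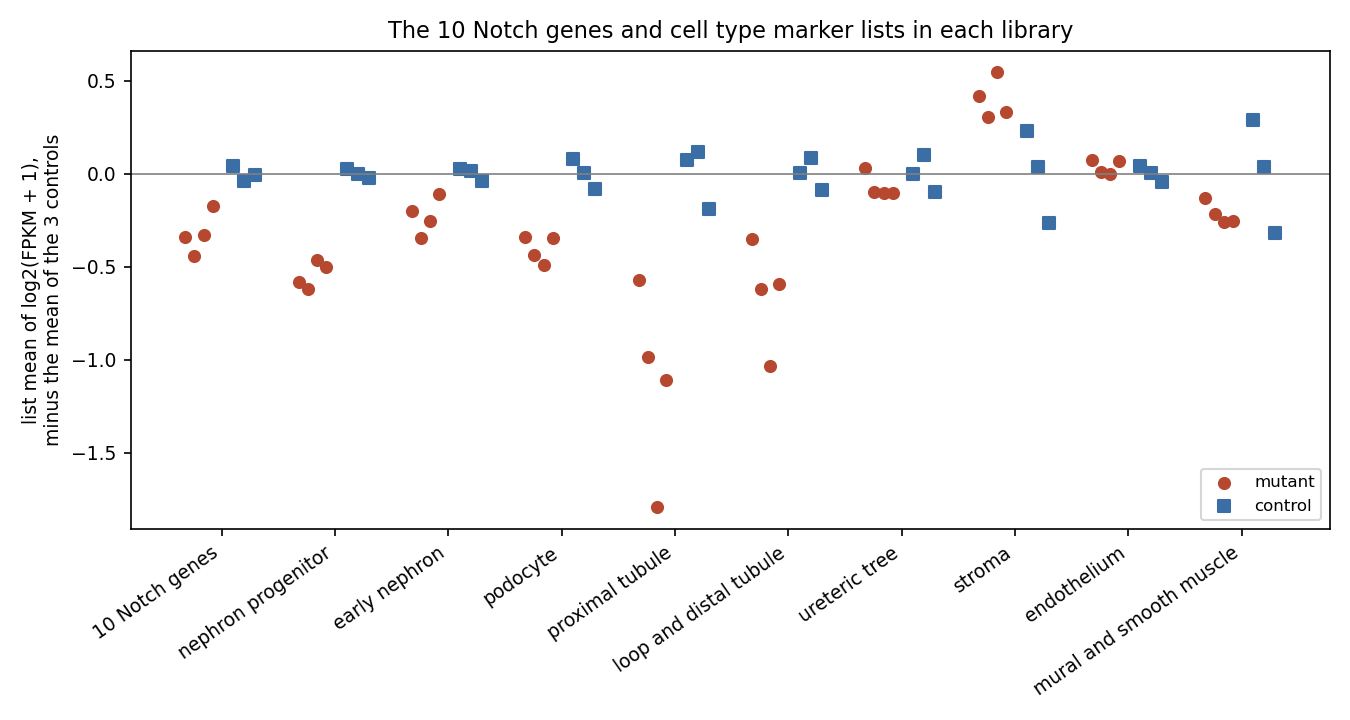
Mean of log2(FPKM + 1) over the 10 Notch genes and over 9 cell type marker lists in each library, given relative to the mean of the 3 controls, with mutants as circles and controls as squares. The 10 Notch genes and the nephron progenitor, early nephron, podocyte and tubule lists lie below the controls in every mutant, the endothelial list does not, and the stromal list lies higher.

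Limma calls of Lfng, Hes1, Hes5 and Heyl changed when mutant replicate 1 was left out. Without it, limma called 4 of the 10 lower, Lfng, Hes1, Hes5 and Heyl, where it called 2.79% of all genes lower. Hes1 then had a log2 fold change of -0.33 (limma adjusted p = 0.0278), and Lfng, Hes5 and Heyl had -0.60, -0.95 and -0.24 (limma adjusted p = 0.0397, 0.0442 and 0.0457). Dll1 and Hey1 did not pass in this set of libraries, with -0.44 and -0.56 (limma adjusted p = 0.0889 and 0.0888). Array weights, which let limma count each library by its scatter, gave mutant replicate 1 the lowest weight of the 7, 0.281, and called the same 4 genes lower, where 6.45% of all genes were called lower. The highest weights were 2.92 for mutant replicate 4 and 2.99 for control replicate 2, so each group leaned most on 1 library in that fit. With each library's length trend removed, an alternative added after the data had been seen, Lfng and Hes5 were called lower (limma adjusted p = 0.0261 and 0.0358), where 2.18% of all genes were. Leaving out any of the other 6 libraries gave 0 calls among the 10 genes. These fits called few genes at all, 11 to 124 of the 13360 to 13410 tested, in either direction.

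**Figure D5:**
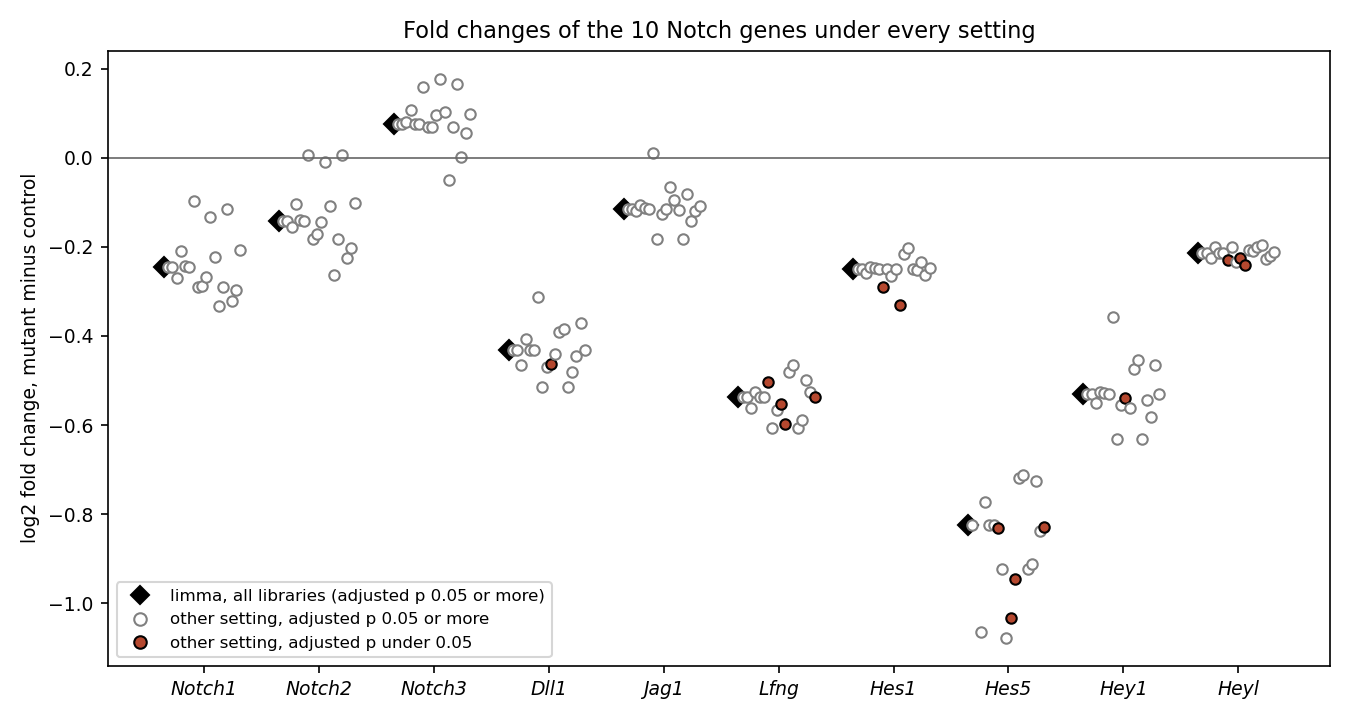
Log2 fold change (mutant minus control) of each of the 10 Notch genes with all libraries (diamonds) and under each other setting (circles), including the authors' deposited DESeq2 values; filled circles passed an adjusted p of 0.05. Dll1, Lfng, Hes1, Hes5, Hey1 and Heyl stay below 0 under every setting shown, Notch2 and Jag1 come to about 0 under some, and Notch3 lies on both sides of 0.

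In order of level per gene length, the control kidneys ran Hes1, Hey1, Jag1, Lfng, Heyl, Dll1, Notch3, Notch2, Notch1 and Hes5, with means of 29.3 to 4.81 FPKM. The mutant order was Hes1, Jag1, Hey1, Heyl, Lfng, Notch3, Dll1, Notch2, Notch1 and Hes5, with means of 24.6 to 2.35 FPKM. Among the mutants, neighbours in this order overlapped except Notch1 and Hes5. Among the controls, Lfng and Heyl, Heyl and Dll1, and Notch1 and Hes5 did not overlap, and all other neighbours did. Hey1 and Lfng each stood 1 place lower in the mutants, and Dll1 came below Notch3. By mean FPKM over the libraries, Hes1 lay above 80.2% of the genes tested, Notch2 above 49.5% and Hes5 above 22.3%.

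For 6 of the genes, the 2 genes with the most similar profile over the libraries were looked up. Likeness was measured as Pearson's r of log2(FPKM + 1) over the 7 libraries, among 8959 genes with a mean of at least 5 FPKM, and is a description, since the difference between the groups adds to it. Hey1 was most like Dll1 (r = 0.984) and then Ado (0.980), and Hes5 was most like Mto1 (0.998) and then Lfng (0.994). Dll1 itself was closest to Ado (0.991) and Tob1 (0.989), and Lfng to Tomm20 (0.991) and Mto1 (0.990), since Hes5 has a mean under 5 FPKM. Heyl was closest to Hip1r (0.987) and Myo1c (0.978), and Jag1 to Arfgef2 (0.909) and Klhl14 (0.908). Jag1 had r = 0.794 with Notch1 and 0.464 with Lfng.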

How the data were processed

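The authors deposited a table with an FPKM value per library and, per the file headers, the columns of a DESeq2 comparison: a mean of normalized counts (a signal), a log2 fold change with its error, a test statistic (a score), a p-value and an adjusted p-value. Per the submitters' processing notes, the authors used STAR 2.6.0c and HTSeq 0.6.1p2 on mm39 (GRCm39), with Trim Galore 0.5.0, FastQC 0.11.5 and DESeq2; annotation, strand setting and gene length definition are not given in the sources used here, so reads shared with overlapping antisense genes may be included. Per the labels' protocols, libraries used the NEB Ultra II Directional kit. The table lists no gene with a mean count under 18.5. Reads per library were recovered from mean count, FPKM and a size factor, and 100% of values came within 0.05 of a whole number.

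Genes with 1 FPKM or more in 3 or more libraries (13466) were tested with limma 3.58.1 in R 4.3.3 on log2(FPKM + 1), 4 mutants against 3 controls, with trend and robust steps, two-sided, adjusted over all of them; steps were tested on simulated data. Fold changes of low genes are understated by the pseudocount of 1. Alternatives were a minimum of 5 FPKM or none, a pseudocount of 0.1, array weights, median-of-ratios size factors, quantile normalization, no trend or robust step, the replicate block, limma-voom on the recovered counts, the deposited test, each library left out, and, added after the data had been seen, removal of each library's trend on length (lowess, span 0.3). Gene lists and members were chosen with earlier results of these data known. The genes named were the 10 members; other pathway genes called by limma or in the deposited table and a few fixed by name; up to 4 called genes, or 2 with the smallest p, of each marker list, of which only those that bear on the members are printed and some are not reported here; genes of the targeted locus; and the closest 2 profiles of 6 members. Hes6, Maml2, Mfng, Rfng, Poglut1 and Furin were named after their values were seen. Tables and plots were made in Python 3.11.15 with pandas 2.3.3, numpy 2.4.6 and matplotlib 3.10.9.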

Additional observations from a re-analysis of the deposited data

Results flagged for a closer look

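In the mutants, the mean of the ureteric tree list in mutant replicate 1, 3.86 on the log2(FPKM + 1) scale, stood apart from the other 3, with a gap of 0.941 of the group's range, over Dixon's 95% critical value for 4 samples. None of the 10 Notch genes did so, and among the 28 gene and list values checked chance alone flags about 1 in 20 groups.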

How the results depend on the processing

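The log2 fold changes of Notch1, Dll1, Lfng, Hes1, Hes5, Hey1 and Heyl were below 0 under every alternative; none could be had for Hes5 with a minimum of 5 FPKM. Notch2 came to 0.0071 with array weights and ran from -0.26 to 0.0057 when each library was left out, Jag1 came to 0.010 with array weights, and Notch3 ran from -0.050 to 0.18 when each library was left out. Calls among the 10 genes, 0 with all libraries, were 5 in the deposited test, 4 with array weights and 2 with the length trend removed, and ran from 0 to 4 when each library was left out. For the 41 other pathway genes, 1 was called with array weights and 1 in the deposited test, against 0. Of the marker genes, 21 were called; the count was 12 with a minimum of 5 FPKM, 13 with a pseudocount of 0.1, 54 with array weights, 50 in the deposited test, 33 with the length trend removed, and 2 to 30 with each library left out. Of all genes, 206 were called, and 60, 109, 1302, 886 and 422 under the same settings, and 11 to 486 with each library left out. With the replicate block, 2 genes, 1 marker gene and 0 of the 10 Notch genes were called. Between same-numbered libraries, deviations from the group means had r of -0.156, 0.028 and 0.098 for replicates 1 to 3. Within a group these deviations sum to 0 in each gene, so such r values cannot decide whether the numbers pair libraries. Replicate 3 had the highest share of Hbb-y in both groups, 10.52% of Hbb-bs in the mutants and 3.45% in the controls. With a minimum of 5 FPKM 31 genes were higher and 29 lower, against 64 and 142. The causes of these shifts were not tested. Hes5, at 99 to 460 reads, is limited by depth more than the others.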
